A study of Caenorhabditis elegans with 4 samples.

Results

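The centre of chromosome V was defined as the interval from 5897000 to 16550000 on the WormBase WS220 build, the part of the chromosome where crossovers are known to be rare. Of the 11843 ZHP-3 peaks in the combined list of the series, 1154 had their midpoint in this interval, which is 9.74% of the list. The interval is 10.65 Mb long and takes 50.9% of chromosome V, and it held 54.0% of the 2139 peaks of that chromosome. Members were chosen by position alone. The first member ran from 5917701 to 5918002 and the last from 16547172 to 16548887, while the nearest peaks outside the boundaries ran from 5847772 to 5848259 on the left and from 16552624 to 16552811 on the right.

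ZHP-3 is a RING-finger protein of C. elegans, related to Zip3 of budding yeast, that is required for meiotic crossovers. It is known to lie along the synaptonemal complex, the protein structure between paired homologous chromosomes, and to become restricted to crossover sites as prophase goes on. Autosomes of C. elegans have a central domain with little recombination, rich in essential and widely expressed genes, between arms on which most crossovers fall. Chromosome V is the longest autosome.

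ChIP-seq was done with SDQ3956, a polyclonal rabbit antibody raised against ZHP-3 and affinity-purified, on whole hermaphrodites of the strain fem-2(b245), genotype fem-2(b245)III, at 20 °C. The groups were 2 ChIP libraries and 2 input DNA libraries, all of this one genotype, so no second strain or treatment was available for comparison. The allele b245 is temperature-sensitive in its feminisation of the germline, and the labels do not say whether the animals were feminised at this temperature. The stage label is germline-containing young adult, whereas the growth protocol describes gravid adults isolated by flotation on sucrose; chromatin came from all tissues, so germ cells were a part of the material that the labels do not quantify. Nothing in the labels ties the replicates to separate cultures, so their spread may be technical.

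Peaks were given by the authors as a start, an end and a score in 3 lists, 1 for each ChIP replicate and 1 for the whole series, called the combined list here. The score is the authors' own value, on a scale the files do not name, and it was compared only within a list or between the replicate lists, which share a lowest score of 50.03. In the same interval of chromosome V the replicate lists held 567 of 5981 peaks in replicate 1 and 687 of 7001 peaks in replicate 2. With no read counts in the lists, depth is unknown, and absence from a list may mean no more than a signal under the caller's limit. Input DNA was not analysed here.

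The centre of chromosome V had the lowest peak density of the 5 autosome centres in each of the 3 lists. In the combined list it held 108 peaks per Mb, against 119 on IV, 125 on II, 137 on I and 156 on III. The mean of those other 4 centres was 134 ± 16.1 peaks per Mb (SD, n = 4 centres), which puts V at 0.81 of that mean. Replicate 1 gave 53.2 peaks per Mb in the V centre, against 59.6 (IV) to 79.8 (III) in the other centres. Replicate 2 gave 64.5 peaks per Mb, against 70.0 (IV) to 99.7 (III). Replicates 1 and 2 thus put V at 0.76 and 0.77 of the mean of the others (0.77 ± 0.007, mean ± SD, n = 2). The values of IV lay nearest to those of V in every list, and III stood farther from the rest than V did in the combined and replicate 2 lists.

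**Figure D1:**
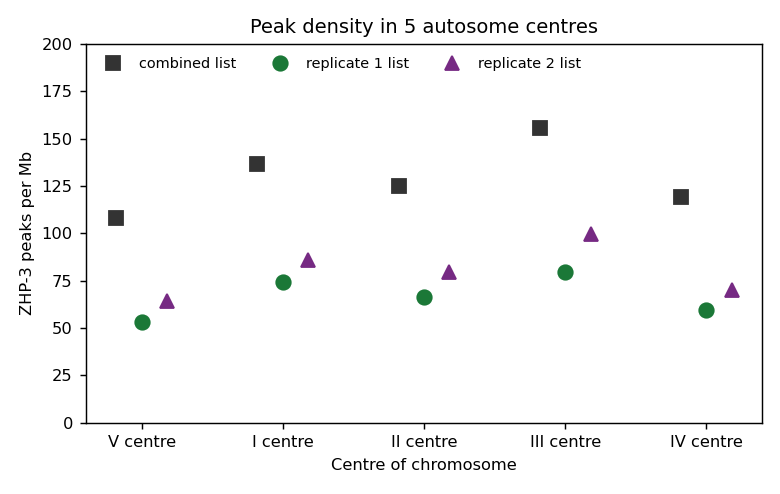
Peaks per Mb (vertical axis) in the centres of chromosomes V, I, II, III and IV (horizontal axis), with 1 square, circle or triangle for the combined, replicate 1 and replicate 2 list. The V centre, at 108, 53.2 and 64.5 peaks per Mb, is the lowest point of each list, with IV next to it.

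With whole centres as the units, this deficit could not pass a test. An exact two-sided permutation test over the 5 centres gave p = 0.4 for the combined list, 0.2 for replicate 1 and 0.4 for replicate 2 and cannot go below 0.2, and the Benjamini-Hochberg adjusted value over the 9 comparisons made on the combined list was 0.45. The low density of V is thus a description of these lists. Peaks covered 5.14% of the V centre in the combined list, against 5.71% to 7.60% of the other centres, so counting bases in place of peaks gave the same order.

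The shortfall was largest among strong peaks. In the upper 25% of the combined list by score (32.46 or more), the V centre held 23.0 peaks per Mb, against 36.1 ± 6.75 in the other centres (SD, n = 4), a ratio of 0.64 (exact permutation p = 0.4). The other centres ran from 28.1 (IV) to 44.0 (III) per Mb. The same reading by share was that 245 of 1154 members, or 21.2% (Wilson 95% interval 19.0 to 23.7), were in that upper part, against 25% of all nuclear peaks and 26.7% in the other 4 centres. The IV centre taken alone, at 23.6% (21.2 to 26.2), and the arms of V, at 23.8% (21.2 to 26.5), lay nearer to V, with overlapping intervals. Peaks found in both replicate lists stood at 43.0 per Mb in the V centre, against 51.7 (IV) to 71.5 (III), a ratio of 0.71 (exact permutation p = 0.2). Peaks found in neither list stood at 39.1 per Mb, against 43.8 (II) to 49.7 (III), a ratio of 0.85 (exact permutation p = 0.2). Only peaks shared with replicate 1 alone were denser in V than in every other centre, with 8.35 per Mb against 5.73 (IV) to 8.16 (III), again at an exact permutation p of 0.2. None of these p-values can reach 0.05 with 5 centres.

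Density was then followed along the interval in 21 fixed windows of 500 kb, from 6.0 to 16.5 Mb; the end pieces of 103 kb and 50 kb outside these windows held 3 and 2 members. Counts ran from 34 to 97 peaks per window in the combined list, with a median of 55. In replicate 1 they ran from 16 to 54 (median 25) and in replicate 2 from 20 to 76 (median 32). The 57 windows of the other centres had medians of 64, 34 and 38 peaks in the combined, replicate 1 and replicate 2 lists. Of the 21 V windows, 16 lay below that median in the combined list, 19 in replicate 1 and 17 in replicate 2. The low density of V was therefore spread over most of the interval. A low window profile was not particular to V. The 17 windows of the IV centre had medians of 56, 29 and 36 peaks in the combined, replicate 1 and replicate 2 lists, also below the pooled medians.

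**Figure D2:**
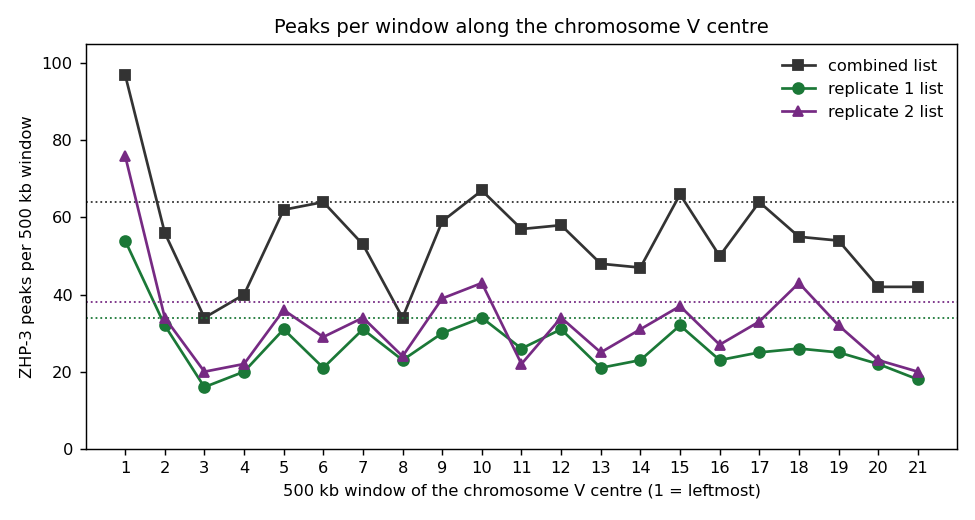
ZHP-3 peaks per 500 kb window (vertical axis) in the 21 windows of the chromosome V centre from left to right (horizontal axis), with 1 line for each list and a dotted line of the same colour at the median of the 57 windows in the other autosome centres. The first window is the highest of each list, with 97, 54 and 76 peaks in the combined, replicate 1 and replicate 2 lists, and most others lie under the dotted lines.

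The window from 6.0 to 6.5 Mb held the most peaks in all 3 lists, namely 97 in the combined list, 54 in replicate 1 and 76 in replicate 2. Peaks covered 11.04% of its bases, more than in any other V window, and 13 of its peaks were 1 kb wide or more. A run of closely spaced peaks in this window, each at most 1500 bp from the next, accounted for 26, 18 and 32 of those peaks. Outside the run it still held 71 combined peaks, against 67 in the next window of that list, 36 in replicate 1 against 34, and 44 in replicate 2 against 43. The variance of the 21 combined counts was 3.52 times their mean, against 1.26 (II) to 6.10 (III) in the other centres. Without this window it was 1.98 times the mean, a value not to be set beside those of the other centres, whose highest windows were kept.

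The second highest window, from 10.5 to 11.0 Mb, held 67 combined peaks, with 34 in replicate 1 and 43 in replicate 2. The emptiest windows of the combined list lay from 7.0 to 7.5 Mb and from 9.5 to 10.0 Mb, with 34 peaks each. The first of these had 16 peaks in replicate 1 and 20 in replicate 2, its lowest count in each replicate list (tied in replicate 2 with the window from 16.0 to 16.5 Mb). The second, with 23 and 24 replicate peaks, was the window with the highest share of members found in both replicates, 52.9%, and the highest median score, 17.1. Of its 34 members, 12 were in the upper 25% of the combined list by score.

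The reverse was seen from 8.5 to 9.0 Mb. That window held 64 members, as many as the median window of the other centres, yet had the lowest median score of the 21, 6.72. Of its members 50% were in neither replicate list and 29.7% in both. From 11.0 to 11.5 Mb the median score was 8.07 and 29.8% were in both lists, and this was the one window with more peaks in replicate 1 (26) than in replicate 2 (22). In the other 20 windows replicate 2 held more. The widest gap between the replicates lay from 14.5 to 15.0 Mb, where replicate 1 had 26 peaks and replicate 2 had 43 (34.5 ± 12.02, mean ± SD, n = 2), apart from the window with the run (65 ± 15.6).

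Across the 21 windows the replicate counts went together (Spearman's rho 0.86, Pearson's r 0.93). Pearson's r leans on the window from 6.0 to 6.5 Mb, with 54 and 76 peaks, against at most 34 and 43 elsewhere. The points share the 2 libraries and neighbouring windows are not independent, so this is given as a description. In 3 parts of 7 windows each, the left part (6.0 to 9.5 Mb) held 116 combined peaks per Mb, the middle part (9.5 to 13.0 Mb) 106 and the right part (13.0 to 16.5 Mb) 107. From left to right, replicate 1 gave 58.6, 53.7 and 48.9 peaks per Mb and replicate 2 gave 71.7, 62.3 and 61.4. Both replicate lists thus had the same order of the 3 parts, while the combined list had its lowest value in the middle part, and the differences were not tested. The left part held 45 of the combined peaks of 1 kb or more, against 24 in the middle and 19 in the right part. Many of those 45 lay in single windows, with 13 from 6.0 to 6.5 Mb and 11 from 9.0 to 9.5 Mb. The left part nonetheless had the smallest part of its members in the upper 25% by score, 17.2%, against 23.5% and 22.8%.

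Most of the peaks were narrow. In the combined list the median width in the V centre was 317.5 bp (quartiles 224 and 503.5 bp), with a range from 146 to 9302 bp. The medians of the other 4 centres ran from 336 bp (IV) to 355 bp (III), a mean of 346 ± 9.22 bp (SD, n = 4). The V centre was the narrowest of the 5, at 0.92 of that mean (exact permutation p = 0.2, the smallest possible; adjusted 0.45). In the replicate lists it was narrowest too, with medians of 455 bp in replicate 1 and 433 bp in replicate 2, a mean of 444 ± 15.6 bp (SD, n = 2), against 462.5 to 482.5 bp and 446 to 471.5 bp in the other centres.

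Broad peaks did not follow the median. Of the V members 89, or 7.71%, were at least 1 kb wide, within the 7.18% to 7.86% of the other centres. In the replicate lists this share was higher in the V centre than in each of the other 4 centres. Replicate 1 had 60 such peaks, 10.6%, against 8.46% to 9.24%, and replicate 2 had 70, 10.2%, against 7.76% to 9.92%. The arms of V had still higher shares, 11.5% in replicate 1 and 11.4% in replicate 2. Per Mb, broad peaks in the replicate lists of V were no denser, at 5.63 and 6.57, than the means of the other centres, 6.15 and 7.17.

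Spacing mirrored the density. The median gap between neighbouring combined peaks, from the end of 1 to the start of the next, was 3332 bp in the V centre (quartiles 677 and 11513 bp), against 2586 bp (III) to 3260 bp (IV) in the other centres, a ratio of 1.10 to their mean (exact permutation p = 0.4). In replicate 1 the median gap was 8957 bp, just under that of IV (8962 bp) and above the rest. In replicate 2 it was 6799 bp, the longest of the 5, against 6686 bp on IV. Gaps of 1500 bp or less made up 37.0% of the gaps in the V centre, within the 36.8% to 41.5% of the others. In the combined list the coefficient of variation of the gaps was 1.46 in V, the highest of the 5, and 1.42 to 1.44 in the other centres. The replicate lists did not share this order. There V had 1.31 in replicate 1 and 1.39 in replicate 2, below the II centre with 1.39 and 1.43. The upper quartile of the gaps in V was the longest of the 5 in each list.

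**Figure D3:**
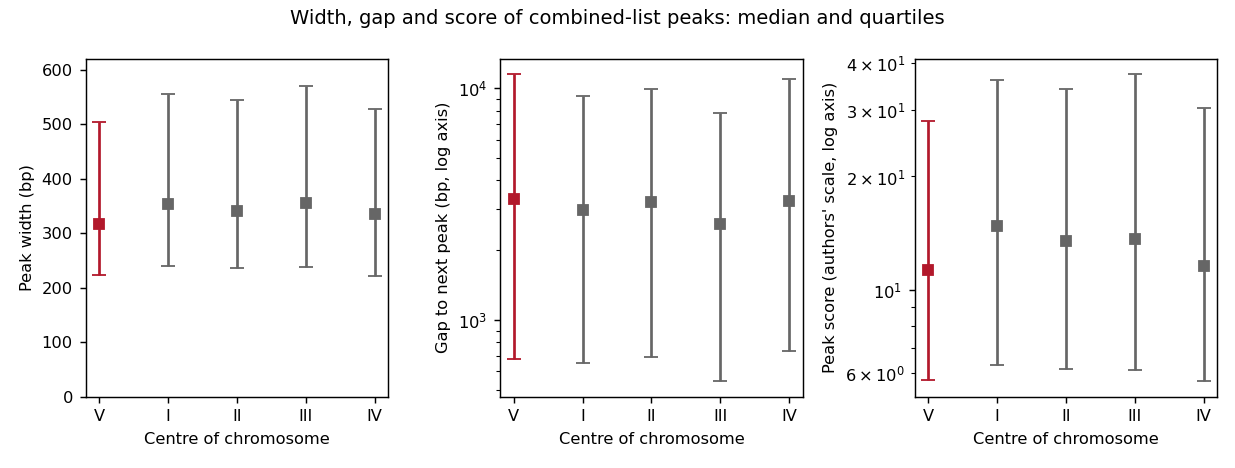
Width in bp, gap to the next peak in bp (log axis) and score on the authors' scale (log axis) of combined-list peaks in the centres of V, I, II, III and IV. Squares are medians and bars run between the quartiles; V has the lowest median width (317.5 bp) and score (11.32) and the longest median gap (3332 bp), and its quartiles overlap those of every other centre.

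The 3 longest stretches of the V centre without a combined peak measured 94.4, 86.6 and 82.6 kb. They ran from 16121151 to 16215560, from 9604053 to 9690611 and from 15683532 to 15766177. The first and second held no peak of either replicate list, while the last held 1 peak of each replicate. The second begins at the edge of one of the 10 highest-scored members, from 9601525 to 9604052, so that a strong site and one of the longest empty stretches lie side by side.

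When neighbours at most 1500 bp apart were joined, the 1154 members fell into 727 groups. Of these groups 504 were single peaks, which is 43.7% of the members, against 38.5% to 43.5% in the other centres. Groups of 5 peaks or more took 12.9% of the members, against 12.3% to 15.9%. Runs of at least 10 peaks numbered 3 in the V centre and held 51 members, or 4.42%, against 3.26% (I) to 5.04% (III) in the other centres and 2.60% of all nuclear peaks.

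The longest run ran from 6070903 to 6096239, 25.3 kb, and held 26 members that covered 76.6% of it. It is bounded on the left by the highest-scored member, from 6070903 to 6072970 with a score of 154.29, and near its right end lies the second highest, from 6091378 to 6093001 with 153.41. Another member in between them, from 6088702 to 6089493, scored 97.67. The last member, from 6095850 to 6096239, scored 34.26, and none of the others scored above 18.69, with a median over all 26 of 10.28. Of the 26, 14 were found in both replicates, 5 in replicate 2 alone, 2 in replicate 1 alone and 5 in neither. Replicate scores in the run reached 3100 in both lists, with medians of 119 over 18 peaks in replicate 1 and 91.1 over 32 peaks in replicate 2.

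The other 2 runs differed in which replicate filled them. The run from 10712216 to 10723720 held 11 members, 3 found in both replicates, 6 in replicate 2 alone and none in replicate 1 alone, and the lists of replicates 1 and 2 had 3 and 9 peaks there. In the run from 11072016 to 11082654, with 14 members, 7 were found in replicate 1 alone, 2 in both and none in replicate 2 alone, with 7 and 2 replicate peaks. No member of that run scored above 35.56 in the combined list, while the run from 10712216 had 2 members of at least 100.

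Scores of the V centre were the lowest of the 5 centres by median. The combined median was 11.32 (quartiles 5.75 and 28.0), against 11.55 (IV) to 14.77 (I), a ratio of 0.85 to the mean of the others (exact permutation p = 0.4, adjusted 0.45). Within the replicate lists, where the percentile over all peaks of the list was taken, the median V peak stood at percentile 47.2 in replicate 1 and 44.9 in replicate 2, against 47.9 to 54.0 and 50.2 to 53.4 in the other centres. At the top, the scores of V reached 154.29, against 146.03 on II and 161.4 on I. Width and score went together in the V centre, with a Spearman's rho of 0.68 over 1154 combined peaks, 0.83 over 567 peaks of replicate 1 and 0.88 over 687 of replicate 2, given as a description because both come from the same call.

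The 10 highest-scored members found in both replicates scored 147.15 to 154.29 and ranked 26 to 49 in the whole combined list. Their widths ran from 1165 to 6540 bp, all well above the median. In the replicate lists, 7 of the 10 had a peak scored at least 3100 in both; exactly 3100 is shared by 109 peaks of replicate 1 and 212 of replicate 2, so the order among these peaks is partly lost there.

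The 10 were unevenly placed. On the left, 4 lay between 6.0 and 7.0 Mb: 2 in the long run, one from 6297509 to 6300169 (150.72) and one from 6587487 to 6588791 (147.15). A pair followed at 9338430 to 9344969 (147.58) and 9601525 to 9604052 (147.15), 257 kb apart. The remaining 4 lay on the right, from 13882024 to 13883318 (147.15), from 13907260 to 13910014 (152.86), from 14154885 to 14156525 (150.72) and from 15295348 to 15296512 (149.83). The first of these are separated by 23.9 kb. No member of the 10 lay in the 4278 kb between 9604052 and 13882024.

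The peak from 13907260 to 13910014 was called with almost the same edges each time. Replicate 1 had it from 13907208 to 13909988 and replicate 2 from 13907379 to 13909907, scored 3100 in both. The peak from 15295348 to 15296512 was the weakest of the 10 in replicate 2, with 2975.74, and scored 2521.37 in replicate 1. Its start differed more, at 15295725 in replicate 1 and 15295393 in replicate 2. The peak from 13882024 scored 2389.55 in replicate 1, the lowest of the 10 there, and 3156.35 in replicate 2.

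The widest members were broad in each list. The widest, 9302 bp from 7915720 to 7925021, was 9435 bp in replicate 1 and 9395 bp in replicate 2, with 3100 in both, although its combined score of 110.18 ranked 36 among the V members. The next, 6844 bp from 10605625 to 10612468, had a combined score of only 35.24 and ranked 231 among the members. Its replicates differed by more than those of the widest, with 351.97 in replicate 1 and 3100 in replicate 2 over nearly equal widths of 6940 and 6891 bp. The third, 6540 bp from 9338430 to 9344969, was 1 peak of 6375 bp in replicate 2 but was split into 2 peaks in replicate 1, of which the top one spanned 4762 bp.

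Members were set against each replicate list by overlaps of at least 1 bp. The replicate lists are separate calls, so a member in neither list may still have signal under their limit. Of the 1154 members, 458 overlapped a peak of both replicate lists, 39.7% (Wilson 95% interval 36.9 to 42.5), against 42.4% of all nuclear peaks. The other 4 centres together gave 45.2% (43.7 to 46.8), from 43.4% on IV to 47.7% on I. A further 190 members, 16.5%, overlapped replicate 2 alone, against 14.2% of all nuclear peaks, 15.2% in the other 4 centres and 17.0% on III. Replicate 1 alone was overlapped by 89 members, 7.71% (6.31 to 9.40). This interval overlaps that of all nuclear peaks, at 6.19% (5.77 to 6.64). The share was 4.94% (4.31 to 5.66) in the other centres and 9.14% on the arms of V. The 417 that overlapped neither list made up 36.1% (33.4 to 38.9), close to the 37.2% of all nuclear peaks. These intervals cover counting error only and treat neighbouring peaks as independent.

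**Figure D4:**
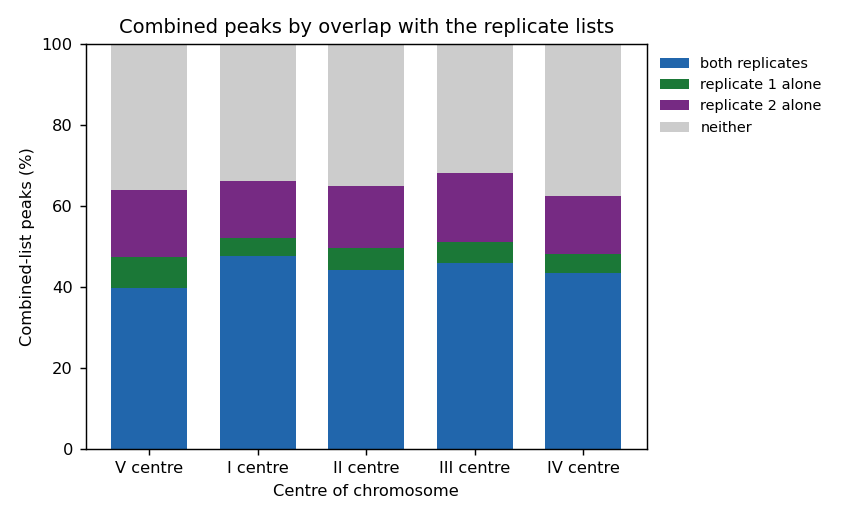
Share of combined-list peaks (vertical axis, %) that overlap both replicate lists, replicate 1 alone, replicate 2 alone or neither, in the centres of V, I, II, III and IV. The V centre has the smallest part found in both (39.7%) and the largest part found in replicate 1 alone (7.71%).

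Between the replicate lists, 481 of 567 replicate 1 peaks of the V centre overlapped a replicate 2 peak, 84.8% (81.6 to 87.6), against 87.3% over the whole list and 89.9% (88.5 to 91.1) in the other 4 centres. In the other direction it was 475 of 687, 69.1% (65.6 to 72.5), against 74.7% over the whole list and 75.2% (73.5 to 76.9). Each of the other centres lay above V in both directions, from 89.2% and from 73.2%. On the arms of V the shares were 82.6% and 76.3%. Nearly all replicate peaks of the interval were in the combined list, namely 565 of 567 (99.6%) and 679 of 687 (98.8%). Over all nuclear peaks of the replicate lists the shares were nearly the same, 99.6% and 98.7%.

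Overlap followed the score. The combined and replicate lists have separate limits, so low-scored members may miss the replicate lists by the limit alone, which was not tested. In the highest-scored 25% of the members (28.05 to 154.29) 284 of 289 were found in both replicates, 98.3%, and none was found in neither. In the lowest-scored 25% (1.42 to 5.74) 2 of 289 were found in both and 231, or 79.9%, in neither. Members from the median up to the highest group (11.34 to 28.04) were in both in 51.7% of cases and in neither in 7.99%. For those from the lowest group up to the median (5.76 to 11.3) the shares were 7.99% and 56.6%. Over all nuclear peaks of every score, 42.4% were in both and 37.2% in neither. Shares by score were taken for the V members only, so they do not show a trait particular to the V centre. The median score was 35.5 for members in both and 5.33 for those in neither, and the median widths were 501 and 214 bp. Members of replicate 1 alone and of replicate 2 alone had medians of 10.75 and 10.54, and widths of 304 and 318.5 bp.

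The strongest member seen in neither replicate list lay from 10395435 to 10395661, 227 bp wide with a score of 15.87. Of replicate peaks with no overlap in the other replicate list, the highest of replicate 1 ran from 11147102 to 11148655 with a score of 2623.25, rank 152 in its list, while a combined peak from 11147148 to 11148628 scored 24.37 there. The highest of replicate 2 ran from 7988831 to 7991557 with 1479.66, rank 603, and its combined peak from 7988902 to 7991483 scored 19.58. Within its own list, each of these 2 peaks was far above the median of unpartnered peaks in the interval, which was 79.4 over 86 peaks of replicate 1 and 92.1 over 212 of replicate 2.

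Where replicate peaks did pair, they lay close together. Over 440 pairs that overlapped one to one in the V centre, midpoints lay a median of 24.8 bp apart, and 389 pairs, 88.4%, lay within 100 bp. In the other 4 centres the median was 26 bp and 91.1% of 1740 pairs lay within 100 bp. For the scores of the V pairs Spearman's rho was 0.81 and Pearson's r of log10 scores 0.83, against a rho of 0.78 to 0.80 on II, IV and I and 0.81 on III. These are descriptions across peaks of 2 libraries. The replicate 2 score was higher in 71.6% of the pairs (315), and its median ratio to replicate 1 was 1.30, against 75.2% and 1.41 in the other centres. Depth is unknown, so the ratio does not tell which library had more enrichment.

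**Figure D5:**
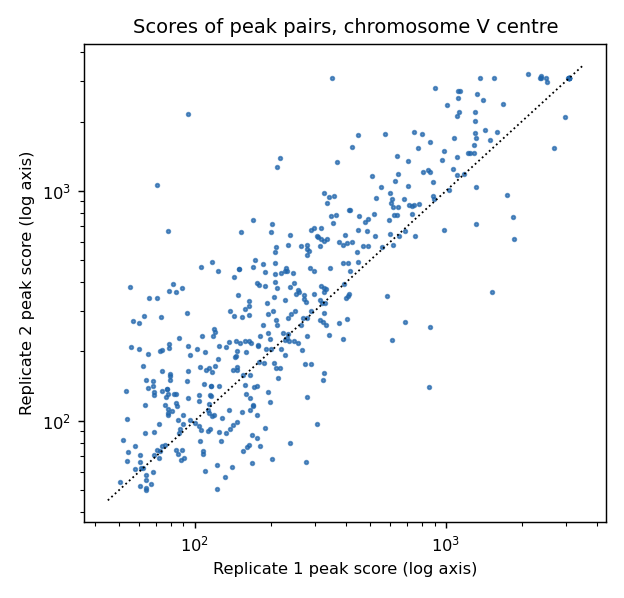
Replicate 2 score against replicate 1 score (both log axes, authors' scale) for the 440 one-to-one peak pairs of the chromosome V centre, 1 point per pair, with a dotted line of equal scores. Of the points, 71.6% lie above the line, and the points at the top edge include the scores of 3100.

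Set against its own arms, the V centre was the denser part in each list. It held 108, 53.2 and 64.5 peaks per Mb in the combined, replicate 1 and replicate 2 lists, against 95.9, 47.6 and 52.1 on the arms, a ratio of 1.13, 1.12 and 1.24. Median width did not keep its direction across lists: it was 317.5 bp in the centre and 324 bp on the arms in the combined list, but 455 and 439 bp in replicate 1 and 433 and 431 bp in replicate 2. In the combined list the median score was 11.32 in the centre and 12.37 on the arms. The share of members found in both replicates was 39.7% in the centre and 39.6% on the arms. The difference between centre and arms rests on 1 chromosome and was not tested.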

How the data were processed

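Peaks of ZHP-3 ChIP-seq in fem-2(b245) adults were read from 3 lists that the authors deposited, 1 per ChIP replicate (2 libraries) and 1 for the series. Each gives start, end and a score, the value of the authors' peak caller on a scale the files do not name; coordinates are on WormBase WS220, per the file headers. Per the file headers and source column, the caller was MACS for the replicate lists and MACS v2 for the combined list. BWA and ce10 are named in the submitters' processing notes. The threshold, the control and any pooling are not stated there, so differences in caller and limit between the combined and replicate lists may move every count.

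Members were the combined peaks with a midpoint inside the interval. The interval, the lists and the tests were chosen with earlier results of these data known. Centres of the other autosomes are published recombination domains. The 3 mitochondrial peaks stayed in the total of 11843 and in the ranks over the whole combined list. They were left out of the comparisons between regions. Windows of 500 kb were counted from the chromosome start. Overlap meant at least 1 bp; a run was 10 or more successive peaks, none over 1500 bp from the next. Centres were compared by an exact two-sided permutation over 5 centres, with Benjamini-Hochberg adjustment over 9 comparisons. Shares have Wilson 95% intervals. Named regions were the 10 highest-scored members found in both replicates, the 3 widest, the highest-scored found in neither, the highest of each replicate without a partner, the 3 longest gaps, all runs, the boundary peaks, and the fullest and emptiest windows; other windows, and single members inside the longest run, were named after their values were seen. Overlap and run finding were tested on simulated data. Python 3.11.15, numpy 2.4.6, pandas 2.3.3, scipy 1.17.1 and matplotlib 3.10.9 were used. No genome or gene annotation of this build was used here, so genes and sequences under the peaks are not given.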

Additional observations from a re-analysis of the deposited data

How the results depend on the processing

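The lower density of the V centre kept its direction under all 8 alternatives, with a ratio to the other centres of 0.64 to 0.81. They included each replicate list alone, stricter score limits, a centre cut as the middle of 3 equal parts, covered bases and, chosen after seeing the data, leaving out the densest window (0.78). Median width (0.91 to 0.96), gap (1.06 to 1.24) and score (0.80 to 0.92) kept theirs under 5 alternatives each, though no p over 5 centres can pass the threshold. Under a reciprocal overlap of 50%, 35.1% of members were found in both replicates, 78.84% of replicate 1 peaks in replicate 2, and rho over paired scores was 0.84; the cause was not tested. The other alternatives left these 3 values inside their intervals. The variance to mean ratio of the 500 kb counts, 3.52 in the combined list, was 2.40 in the replicate 1 list and 4.59 in the replicate 2 list. Those are separate calls with mean counts of 26.9 and 32.6 per window, against 54.7 in the combined list. The 3 ratios are therefore not strictly comparable. In the combined list the ratio fell to 2.10 outside the dense runs. It fell to 1.98 without the densest window, from 6.0 to 6.5 Mb, a choice made after seeing the data. That window was left out because its count was the highest, which by itself pulls the ratio down. The other centres were not trimmed in this way, so the fall does not set V apart from them. No paired analysis was possible because only ChIP lists were used, and the input DNA with the same numbers was not analysed here. Depth is unknown and limits what the absence of a peak can show.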
